A study of Mus musculus with 6 samples.

Results

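The 4 libraries of mouse germinal vesicle (GV) oocytes were compared by the replicate number in their titles instead of by genotype. The pair numbered 2 (1 YAP-null and 1 wild-type library) was set against the pair numbered 1 (also 1 YAP-null and 1 wild-type library), which used 4 of the 6 libraries of the study. GV oocytes are fully grown oocytes that still hold an intact nucleus and wait in the prophase of the first meiotic division. Each library was made from the messenger RNA of 60 oocytes, taken from females of the ICR background aged 21 to 23 days. The females had been given hormones, which the labels write as PMSG/hCG for oocytes and embryos together; PMSG drives follicles to grow and hCG triggers ovulation. The YAP-null oocytes came from YAP-/- females and lack Yap1, the gene of a transcriptional coactivator controlled by the Hippo pathway, and the wild-type oocytes came from wild-type females. The labels do not say how or in which cells Yap1 was deleted, nor whether a number stands for an animal, a day or a sequencing run. Each number holds 1 library of each genotype, so the comparison by number is balanced for genotype.

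A GV oocyte makes almost no new RNA once its chromatin has condensed, and it lives on a store of messages that were made during growth. Part of the store is translated in the growing oocyte, and another part is kept silent with a short poly(A) tail until meiosis resumes, when cytoplasmic polyadenylation elements in the 3′ untranslated region direct tail lengthening. Messages stored in the oocyte also encode the subcortical maternal complex, the zona pellucida and the factors that arrest and restart meiosis.

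Expression was read as FPKM, the number of fragments mapped to a gene, scaled by its transcript length and by the depth of the library. Differences are given as log2(FPKM + 1), number 2 minus number 1, with the standard error of the fit across all genes (limma), and a gene was called at an adjusted p under 0.05. In the sentences that give 4 FPKM values, the libraries come in the order YAP-null number 1, wild type number 1, YAP-null number 2, wild type number 2. Yap1, the deleted gene, stood at 10.8, 248, 10.04 and 154 FPKM. Yap1 was low in both YAP-null libraries whatever the number, and its difference between the numbers was -0.39 ± 1.44 (SE), adjusted p = 0.837.

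All 12 defining oocyte markers reached 1 FPKM in every GV library. Their summed level was 6816 and 7541 FPKM in the libraries numbered 1 and 10516 and 10883 FPKM in those numbered 2. The markers did not move together, with 8 called higher and 2 lower (66.7% and 16.7%, against 30.2% and 23.0% of all genes). Oosp1 stood at 2083, 1973, 816 and 884 FPKM and Dazl at 166, 147, 76.0 and 78.5 FPKM, both chosen after their values were seen. The sum over 23 granulosa and cumulus cell markers was 49.1 to 61.0 FPKM in the 4 libraries, and 8 to 10 of these markers reached 1 FPKM. Of the 11 that could be tested 1 was called higher (Inhbb) and 1 lower (Amhr2), 9.09% each, against 30.2% and 23.0% of all genes. Of 20 stroma, vessel and blood cell markers, 8 to 15 were at 0 and the sum was 14.5 to 30.4 FPKM, most of it Pecam1 (12.8, 16.7, 22.7 and 25.7 FPKM). The part of other cell types in the results was not tested beyond these levels, and in such bulk samples fewer cells of a type and less RNA per cell cannot be told apart. The files give no read counts. Relative depth was estimated from the width of the deposited bounds, over 3645 genes with values inside their bounds and with wild-type library 1 set to 1. It was 0.366 and 1 in the libraries numbered 1 and 0.446 and 0.418 in those numbered 2. In YAP-null library 1 the microRNA gene Mir762 alone took 19.09% of all FPKM, and it was at 0 in the other GV libraries.

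The libraries resembled each other by number and not by genotype. Across the 10463 genes that averaged 1 FPKM or more, the Pearson correlation of log2(FPKM + 1) was 0.980 between the genotypes within number 1 and 0.982 within number 2. Between the numbers it was 0.871 in YAP-null and 0.888 in wild-type oocytes. The median absolute log2 difference of a gene between the numbers was 0.60 in the YAP-null pair and 0.55 in the wild-type pair. Between the genotypes it was 0.19 within number 1 and 0.16 within number 2.

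By limma, 5568 genes (53.2%) were called between the numbers, 3165 higher (30.2%) and 2403 lower (23.0%) in number 2. Of the called genes 56.8% were higher, a share that was 45.1% after quantile normalization and 70.3% after all libraries were brought to 1 common sum. At a common sum without Mir762, a setting chosen after seeing the data, the share was 57.5%. The median over all genes was 0.08 as deposited and -0.12 after quantile normalization. It was 0.22 at a common sum and 0.10 at a common sum without Mir762. Small differences therefore carry no firm sign. Both libraries numbered 2 lay above both numbered 1 for 4497 genes (43.0%) and below both for 3598 genes (34.4%). For the same 4 libraries grouped by genotype, limma called 0 genes (0.0%), with 22 at an unadjusted p under 0.05, and 2 (Yap1 and Stk32a) when the replicate number was added as a block. With 2 libraries against 2, an exact permutation test of a single gene cannot go below p = 0.333, and the limma p-values measure only the spread between these libraries.

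Among the large differences more genes were higher than lower. At least 2-fold in both genotypes, 1383 genes (13.2%) were higher and 428 genes (4.09%) lower in number 2. The counts were 1066 and 668 after quantile normalization, 1556 and 250 at a common sum, and 768 and 250 with a pseudocount of 5 FPKM. At a common sum without Mir762 they were 1407 and 420. At 4-fold the counts were 303 higher and 8 lower, at 8-fold 62 and 0, and at 16-fold 10 and 0. The YAP-null pair and the wild-type pair share no library. Of the genes at least 2-fold higher in number 2, the shared ones made up 73.6% of the YAP-null list and 80.3% of the wild-type list, and of the lower genes 46.7% and 60.0%. Across genes, which are not independent replicates, the differences in the YAP-null and the wild-type pair had a Pearson r of 0.849 and a Spearman rho of 0.842. Among all tested genes, those counted above included, 362 reached 1 FPKM in both libraries numbered 2 and in neither numbered 1, and 73 the other way round.

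**Figure D1:**
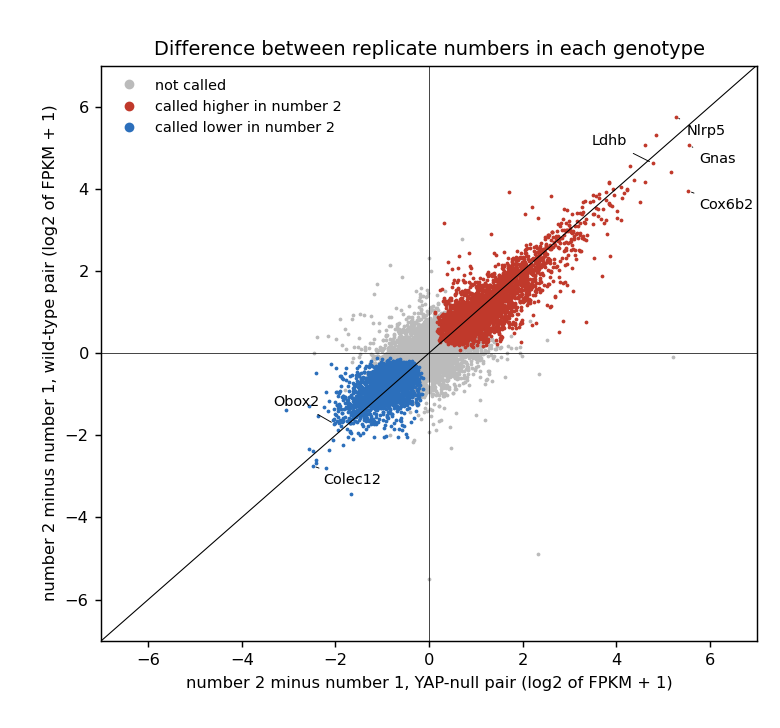
Each point is 1 of the tested genes, with the difference between number 2 and number 1 (log2 of FPKM + 1) in the YAP-null pair on the x axis and in the wild-type pair on the y axis; the diagonal marks equal differences, red and blue mark genes called higher and lower, and Mir762 and Mir680-2 lie outside the axes. The points follow the diagonal (r = 0.849), and the upper arm, with Nlrp5, Gnas and Ldhb, reaches further than the lower arm with Obox2 and Colec12.

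Lactate dehydrogenase B, the subunit that favours turning lactate into the pyruvate on which oocytes live, gave the highest FPKM of any gene in both libraries numbered 2. Ldhb (chromosome 6, 142438769 to 142456463, mm9) stood at 115, 133, 3177 and 3307 FPKM. The libraries numbered 2 were far above those numbered 1 in both genotypes, and the log2 difference was 4.70 ± 0.103 (SE), adjusted p = 4.0e-07. The deposited values of 3177 and 3307 FPKM lie above their own deposited upper bounds of 2874 and 2982 FPKM, and that of wild-type library 1 above its bound of 128 FPKM. The lower bounds of the libraries numbered 2 were 2744 and 2845 FPKM, far above the upper bounds of those numbered 1.

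The A subunit, which favours the opposite reaction, went the other way at a low level. Ldha stood at 6.95, 7.20, 1.23 and 4.33 FPKM, a difference of -1.23 ± 0.364 (SE), adjusted p = 0.0213, which was 0.0505 without YAP-null library 1, 0.0892 without YAP-null library 2 and 0.105 with no filter on low values. Ldhc, the germ-cell subunit, stood at 13.7, 9.26, 12.98 and 15.8 FPKM and did not pass the test (0.32 ± 0.208, SE, adjusted p = 0.225). The groups overlapped for Ldhc and did not for Ldha and Ldhb. Of all genes tested, 43.0% had both libraries numbered 2 above both numbered 1, and 34.4% below both.

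Of 22 tested members of the glycolysis list, 2 were called higher (Ldhb and the pyruvate kinase gene Pkm, named after its value was seen) and 7 lower. These are 9.09% and 31.8% of the list, against 30.2% and 23.0% of all genes, and the list median was -0.26 against 0.08. Aldoa, the aldolase that splits the 6-carbon sugar, stood at 179.7, 178, 65.5 and 62.3 FPKM (-1.47 ± 0.105, SE, adjusted p = 2.1e-05). Slc2a1, a glucose transporter, fell by 1.51 ± 0.239 (SE) on the log2 scale (adjusted p = 0.00105). Mpc1, which carries pyruvate into mitochondria, had a difference of -1.30 ± 0.262 (SE), adjusted p = 0.00358.

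The subunits of oxidative phosphorylation split. Of 81 tested, 20 were called higher and 32 lower (24.7% and 39.5%, against 30.2% and 23.0% of all genes), with a median of -0.27. Cox6b2, the germ-line form of a small cytochrome c oxidase subunit, stood at 0, 3.20, 45.4 and 63.8 FPKM (4.74 ± 0.549, SE, adjusted p = 2.1e-04). Ndufa4, a small respiratory chain subunit, stood at 8.92, 7.88, 117 and 126 FPKM (3.70 ± 0.133, SE, adjusted p = 1.7e-06). Cox6c and Ndufa5 were also higher, by 2.78 ± 0.125 and 2.31 ± 0.326 (SE). These 4 are short messages, of 315 to 606 bases. At the other end, and chosen after its value was seen, Ndufs8 of complex I stood at 57.1, 53.9, 17.1 and 15.9 FPKM (-1.69 ± 0.130, SE, adjusted p = 2.9e-05).

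The Obox genes, a cluster of oocyte homeobox genes on chromosome 7, were lower in number 2. Obox2 (15974200 to 15983892, mm9) stood at 2454, 2086, 605 and 629 FPKM, a difference of -1.87 ± 0.102 (SE), adjusted p = 7.2e-06. Obox1 (16132606 to 16142195) stood at 982, 704, 423 and 412 FPKM (-0.99 ± 0.148, SE, adjusted p = 7.5e-04). Obox5 (16335719 to 16344623) stood at 1080, 904, 472 and 479 FPKM (-1.05 ± 0.107, SE, adjusted p = 1.1e-04). For all 3 genes both libraries numbered 1 were above both numbered 2, as they were for 34.4% of all genes tested.

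The Obox copies are similar in sequence, so single members are uncertain. Of the 769 windows of 50 bases in the Obox2 transcript, 40.7% also occur in Obox1 and 1.69% in Obox5. The sum of the 3 genes, which still depends in part on how reads were divided because Obox5 has a longer transcript (1831 bases) than Obox1 (835) and Obox2 (818), was 4516, 3694, 1500 and 1521 FPKM, a log2 difference of -1.59 in the YAP-null and -1.28 in the wild-type pair. Obox3 (0.429 to 1.36 FPKM) and Obox6 (0 to 0.279 FPKM) were below the level needed for the test, while both were far higher at the 4-cell stage (131 and 51.1 FPKM for Obox3, 309 and 531 FPKM for Obox6, in YAP-null and wild-type embryos).

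**Figure D2:**
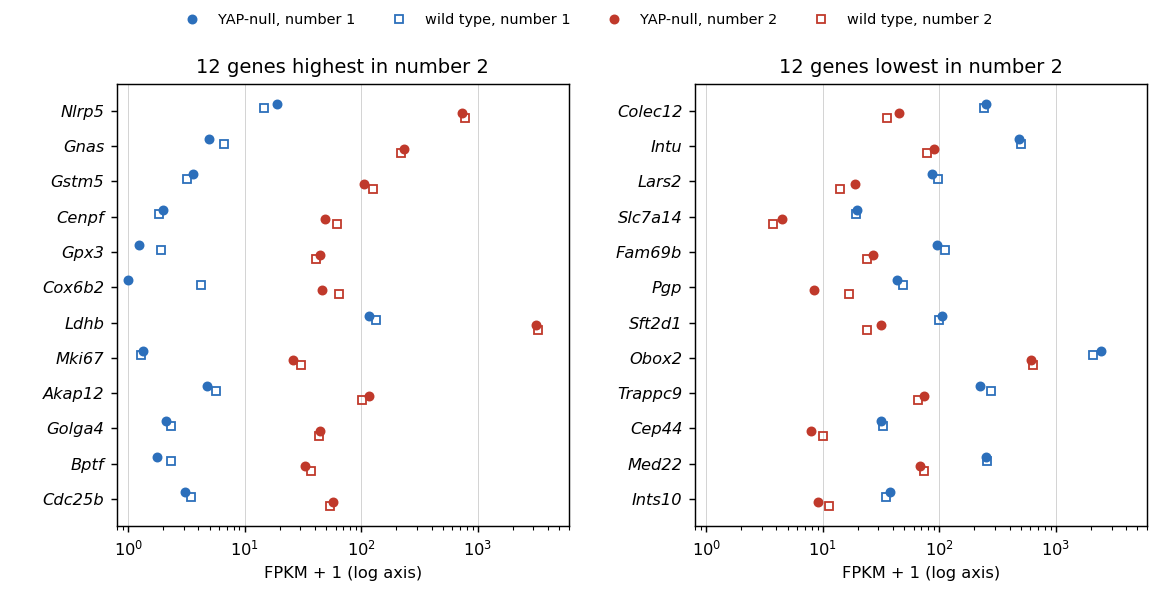
FPKM + 1 in each GV library (log axis) for the 12 genes with the largest positive and the 12 with the largest negative difference among genes that averaged 10 FPKM or more; circles are YAP-null and squares wild-type libraries, blue is number 1 and red number 2. Only called genes with non-overlapping groups and at least 2-fold in both genotypes were eligible, so the red and blue symbols of the 24 genes are apart by choice. Levels went from 115 and 133 to 3177 and 3307 FPKM for Ldhb and from 2454 and 2086 to 605 and 629 FPKM for Obox2.

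Maternal-effect genes, whose loss in the mother stops the embryo early, were more often higher than lower. Of 23 tested, 13 were called higher and 3 lower (56.5% and 13.04%, against 30.2% and 23.0% of all genes), with a median of 0.49. Nlrp5 (MATER), a core protein of the subcortical maternal complex, had the largest difference of the 12 leading higher genes, at 17.9, 13.6, 728 and 781 FPKM (5.51 ± 0.142, SE, adjusted p = 7.2e-07). Its deposited bounds in number 2 (709 to 755 and 763 to 811 FPKM) lie far from those in number 1 (15.2 to 20.7 and 12.2 to 14.9 FPKM).

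Other proteins of the oocyte's cytoplasmic lattices and of its nucleus followed. Padi6, needed for the lattices, stood at 191, 225, 1944 and 2039 FPKM (3.26 ± 0.106, SE, adjusted p = 1.5e-06). Npm2, the nucleoplasmin that remodels sperm chromatin, stood at 97.6, 105, 893 and 907 FPKM (3.14 ± 0.0966, SE, adjusted p = 1.5e-06). Smarca4, the motor of a chromatin remodelling complex, was higher by 2.59 ± 0.177 (SE). Ooep, a partner of Nlrp5 named after its values were seen, did not pass the test at 667, 735, 676 and 858 FPKM (0.12 ± 0.126, SE, adjusted p = 0.448).

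The genes of the zona pellucida and of secreted oocyte proteins also leaned higher, with a median of 0.43. Of 15 tested, 8 were called higher and 3 lower (53.3% and 20.0%, against 30.2% and 23.0% of all genes). Astl, the protease that cleaves the zona after fertilization, stood at 21.3, 70.3, 322 and 363 FPKM (3.11 ± 0.429, SE, adjusted p = 5.1e-04), with the libraries numbered 1 apart from each other. The zona proteins Zp2 (295, 312, 1315 and 1319 FPKM) and Zp3 (551, 572, 1849 and 1830 FPKM) were higher by 2.12 ± 0.0894 and 1.71 ± 0.0851 (SE). Bmp15, a growth factor that acts on the cumulus cells, was higher by 1.46 ± 0.0881 (SE). Gdf9, its partner and a gene named after its values were seen, stood at 1996, 2576, 2695 and 2875 FPKM and did not pass the test (0.30 ± 0.123, SE, adjusted p = 0.0733).

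Clusters of genes expressed mainly in oocytes went in different directions. In the Nlrp family 5 of 12 tested were called higher and 1 lower, with Nlrp14 at 310, 332, 1504 and 1673 FPKM (2.30 ± 0.0975, SE). The oocyte Fbxw cluster had 5 higher and 1 lower of 13, with Fbxw24 at 159.6, 152, 762 and 732 FPKM (2.25 ± 0.0942, SE). These were 41.7% and 8.33% of the Nlrp and 38.5% and 7.69% of the Fbxw list, against 30.2% and 23.0% of all genes. The Nlrp median was 0.21 (-0.0074 in the YAP-null and 0.46 in the wild-type pair). The Fbxw median of 0.09 was near the 0.08 of all genes. The Tcl1 family had 0 higher and 4 lower of 6 (66.7% lower), with Tcl1, a cofactor of AKT kinase, at 1125, 1045, 561 and 626 FPKM (-0.87 ± 0.0974, SE). Pou5f1, a pluripotency factor stored in oocytes, stood at 283, 298, 161 and 161 FPKM (-0.85 ± 0.0977, SE, adjusted p = 2.0e-04). Members of the Nlrp, Fbxw and Tcl1 clusters resemble each other, so reads may be shared among them.

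Genes that hold or restart meiosis were called in both directions, 9 higher and 7 lower of 26 (34.6% and 26.9%). These shares are near those over all genes (30.2% and 23.0%), and the list median of 0.08 equals that of all genes. Gnas, the G protein subunit that keeps cyclic AMP high and meiosis arrested, stood at 3.93, 5.57, 230.3 and 218 FPKM (5.30 ± 0.161, SE, adjusted p = 1.5e-06). Cdc25b, the phosphatase that activates CDK1 at resumption, stood at 2.06, 2.45, 56.5 and 53.0 FPKM (4.10 ± 0.158, SE, adjusted p = 1.8e-06). Pde3a, which breaks down cyclic AMP, stood at 18.0, 17.6, 67.8 and 64.7 FPKM (1.84 ± 0.124, SE, adjusted p = 1.6e-05). Ccnb3, a cyclin needed for anaphase of the first meiotic division, was higher by 1.56 ± 0.212 (SE).

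Messages known to be kept silent in the GV oocyte and recruited for translation at maturation were mostly lower. Of 17 tested, 10 were called lower and 4 higher (58.8% and 23.5%, against 23.0% and 30.2% of all genes), with a median of -0.41. Mos, the kinase that holds eggs at the second metaphase, stood at 692, 718, 237 and 256 FPKM (-1.51 ± 0.0949, SE, adjusted p = 1.2e-05). Plat, tissue plasminogen activator and the classic example of such a message, stood at 1531, 1266, 511 and 559 FPKM (-1.38 ± 0.113, SE, adjusted p = 3.9e-05). Orc6, of the origin recognition complex, stood at 106, 98.7, 33.8 and 39.4 FPKM (-1.46 ± 0.127, SE). Tpx2, a spindle assembly factor and the member furthest up of the 4 called higher, stood at 10.3, 10.8, 56.3 and 61.7 FPKM (2.38 ± 0.135, SE, adjusted p = 7.9e-06).

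Spindle, kinetochore and checkpoint genes were called higher for 13 and lower for 7 of 30 (43.3% and 23.3%, against 30.2% and 23.0% of all genes). Cenpf and Cenpe, the members furthest up, have long coding sequences of 8991 and 7413 bases, while that of Incenp has 2640. Cenpf, a kinetochore and nuclear matrix protein, stood at 0.987, 0.845, 47.4 and 60.5 FPKM (4.83 ± 0.184, SE, adjusted p = 1.8e-06). Cenpe, a kinetochore motor, stood at 1.499, 1.17, 34.8 and 37.0 FPKM (3.98 ± 0.173, SE). Incenp, of the chromosomal passenger complex, was higher by 2.43 ± 0.134 (SE).

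Factors that store, silence or degrade messages were also mixed. Of 23 tested storage factors 13 were called higher and 6 lower (56.5% and 26.1%, against 30.2% and 23.0% of all genes). Their median was 0.49, and the list shares Zar1 with the maternal-effect list. Atxn2, which binds poly(A)-binding protein, stood at 6.99, 6.16, 30.0 and 27.8 FPKM (1.98 ± 0.154, SE), and Ddx6, a helicase of silent mRNA particles, was higher by 1.88 ± 0.208 (SE). Igf2bp2, an mRNA-binding protein, stood at 52.6, 55.2, 180.3 and 172 FPKM (1.69 ± 0.108, SE). Of 23 deadenylation and decapping factors 9 were called higher and 8 lower (39.1% and 34.8%). The scaffold Cnot1 was higher by 1.17 ± 0.148 (SE), and the deadenylase subunit Cnot7 lower, with a difference of -1.07 ± 0.137 (SE).

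Most cytosolic and mitochondrial ribosomal protein genes and proteasome subunits were called lower in number 2. Translation factors were called in both directions, 14 higher and 24 lower of 61 (23.0% and 39.3%, against 30.2% and 23.0% of all genes). Of 82 tested cytosolic ribosomal protein genes 61 were called lower and 10 higher (74.4% and 12.2%), with a median of -0.82. Rplp0, of the ribosomal stalk, stood at 485, 500.3, 127 and 152 FPKM (-1.82 ± 0.115, SE, adjusted p = 1.3e-05), and Rps16 at 431, 423, 109.7 and 134 FPKM (-1.81 ± 0.119, SE). The family was not uniform: Rpl5, chosen after its value was seen, stood at 61.2, 59.8, 179 and 185 FPKM (1.57 ± 0.105, SE). Ribosomal protein genes have many processed pseudogenes, with which reads may be shared.

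Mitochondrial ribosomal proteins and proteasome subunits moved the same way. Of 76 tested mitochondrial ribosomal protein genes 53 were called lower and 1 higher (69.7% and 1.32%, against 23.0% and 30.2% of all genes, median -0.70). Mrpl12 stood at 225, 200.1, 56.1 and 69.9 FPKM (-1.75 ± 0.136, SE, adjusted p = 3.0e-05). Of 36 tested proteasome subunits 22 were called lower and 2 higher (61.1% and 5.56%, median -0.62). Psma7, of the catalytic core, stood at 560.5, 475, 137 and 154 FPKM (-1.82 ± 0.118, SE, adjusted p = 1.4e-05), and Psmb3 was lower, with -1.80 ± 0.127 (SE).

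**Figure D3:**
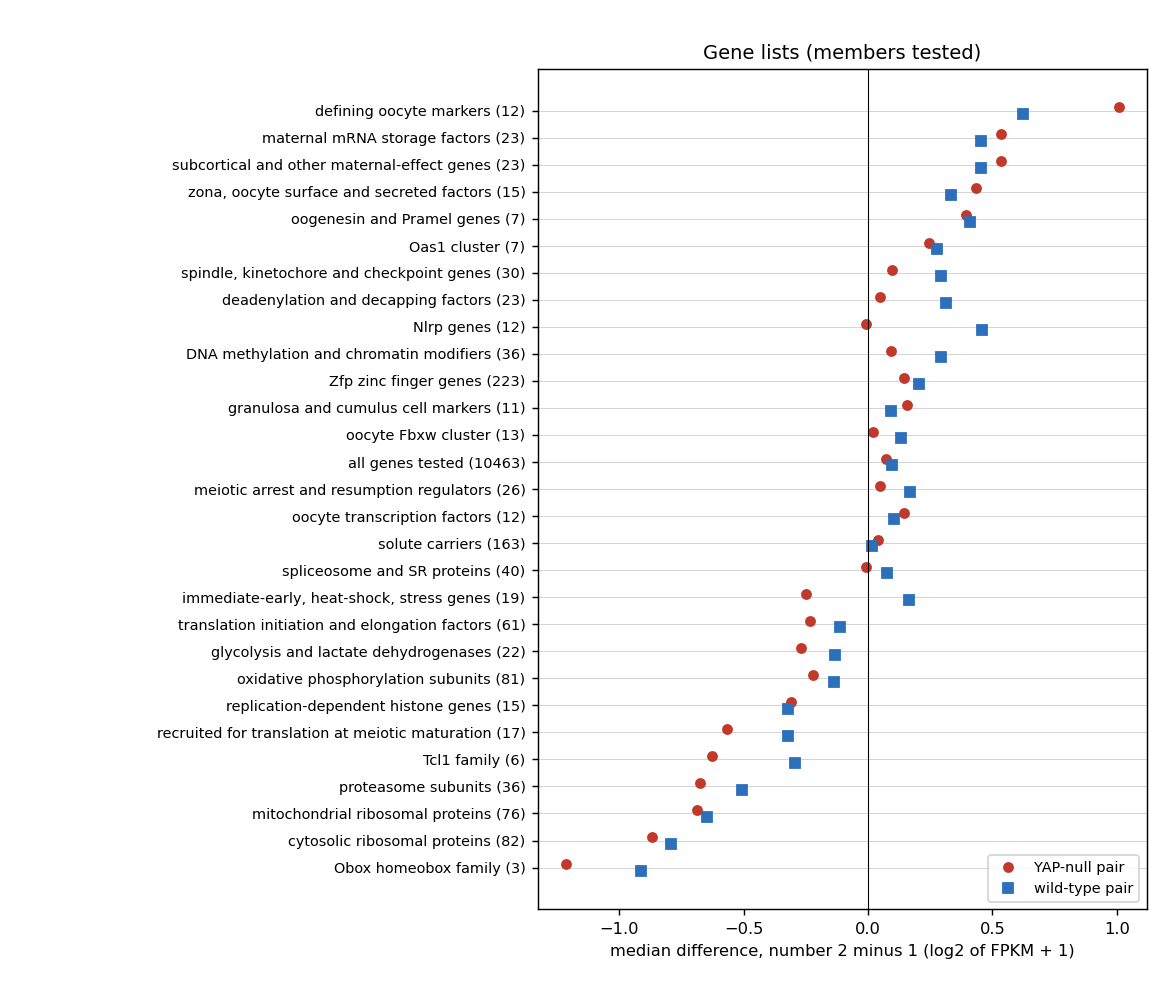
Median difference between number 2 and number 1 (log2 of FPKM + 1) over the tested members of each gene list, in the YAP-null pair (red circles) and the wild-type pair (blue squares), with the number of members tested and the same over all genes. The Obox, ribosomal and proteasome lists lie lowest, with overall medians of -1.05, -0.82 and -0.62 for Obox, cytosolic ribosomal and proteasome genes. The oocyte markers lie highest, at 0.82. Small non-coding RNA genes, with only 5 tested members, are not drawn. The 2-cell stage genes (2 tested) and the stroma, vessel and blood cell markers (1 tested) are not drawn either.

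Chromatin regulators had 13 called higher and 6 lower of 36, or 36.1% and 16.7% against 30.2% and 23.0% of all genes. Chd4, a nucleosome remodeller, stood at 12.0, 12.4, 82.6 and 82.9 FPKM (2.67 ± 0.125, SE, adjusted p = 4.1e-06). Tet3, which oxidizes methylated cytosine in the zygote, stood at 12.3, 10.8, 69.8 and 65.5 FPKM (2.45 ± 0.136, SE, adjusted p = 7.6e-06).

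The remaining leading higher genes came from several functions. Gstm5 and Gpx3, a glutathione transferase and a secreted glutathione peroxidase, stood at 2.62, 2.21, 104 and 126 FPKM and at 0.242, 0.913, 43.4 and 39.8 FPKM, with differences of 5.08 ± 0.160 and 4.79 ± 0.232 (SE). Mki67, a coat protein of mitotic chromosomes, stood at 0.331, 0.291, 25.1 and 29.4 FPKM (4.43 ± 0.192, SE, adjusted p = 3.1e-06). Akap12, a scaffold for protein kinase A, stood at 3.77, 4.69, 116 and 100.3 FPKM (4.39 ± 0.156, SE). Golga4, a long coiled-coil protein of the Golgi, stood at 1.11, 1.34, 43.1 and 42.2 FPKM (4.30 ± 0.166, SE). Bptf, the largest subunit of a nucleosome remodelling factor, stood at 0.752, 1.31, 32.0 and 35.7 FPKM (4.11 ± 0.199, SE).

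The leading lower genes moved less. Colec12, a scavenger receptor, stood at 252, 239, 44.1 and 34.9 FPKM (-2.62 ± 0.134, SE, adjusted p = 5.7e-06). Intu, a planar polarity effector needed for cilia, stood at 479, 502, 89.4 and 78.0 FPKM (-2.54 ± 0.109, SE, adjusted p = 3.1e-06). Lars2, the mitochondrial leucyl-tRNA synthetase, stood at 86.1, 95.9, 17.9 and 12.996 FPKM (-2.50 ± 0.166, SE). The other 9 were Slc7a14, Fam69b, Pgp, Sft2d1, Obox2, Trappc9, Cep44, Med22 and Ints10, with differences between -2.25 and -1.83. All 24 leading genes were called under each of the 13 alternative settings, with an adjusted p of at most 0.0150. They had been chosen as called, with large differences, in these same libraries, so this is no independent support.

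Signs of RNA content other than messages also differed between the numbers. Rn45s, the ribosomal RNA precursor, stood at 186, 168, 30.5 and 32.3 FPKM, a difference of -2.45 ± 0.117 (SE), adjusted p = 4.2e-06. The part that ribosomal RNA carry-over or RNA quality has in the gene results was not tested. Of 19 tested immediate-early, heat-shock and stress genes 6 were called higher and 3 lower (31.6% and 15.8%), near the shares over all genes, and the list median was -0.25 in the YAP-null and 0.17 in the wild-type pair. The members furthest up were the chaperones Hspa5 at 17.9, 26.7, 142 and 163 FPKM (2.74 ± 0.184, SE) and Hsp90aa1 at 300.1, 238, 870.0 and 842 FPKM (1.68 ± 0.122, SE).

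Transcript length moved with the difference. Of the tested genes 10075 (96.3%) matched a transcript of GENCODE mouse release 21, and these were divided by length into 10 bins of nearly equal size. The median difference was -0.24 in the shortest bin (105 to 899 bases), -0.26 in both next bins (up to 1673 bases), -0.01 in bin 5 and 0.83 in the longest bin (5356 bases and more). The share called higher went from 21.1% in the shortest to 61.7% in the longest bin, and the share called lower from 37.2% to 5.06%. The YAP-null pair was lowest in bin 2 (-0.36) and the wild-type pair in bin 3 (-0.24), and both had 0.84 in the longest bin. The genotype difference had medians of -0.03 to 0.03 over the bins.

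The genes also differed within a given length. The Spearman correlation of length with the difference was 0.342 in the YAP-null and 0.346 in the wild-type pair. Within each length bin the 2 pairs still followed each other, with a Pearson r of 0.802 in the shortest and 0.941 in the longest bin. After the median of its length bin was subtracted from each gene, the r between the pairs was 0.859, against 0.877 before. The same subtraction left a median of -0.59 for the cytosolic ribosomal, -0.60 for the mitochondrial ribosomal and -0.37 for the proteasome genes, and brought the oxidative phosphorylation list to -0.03. Of the 12 leading higher genes 5 were in the longest length bin and 4 in the shortest 3 bins, among them Cox6b2 and Ldhb.

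**Figure D4:**
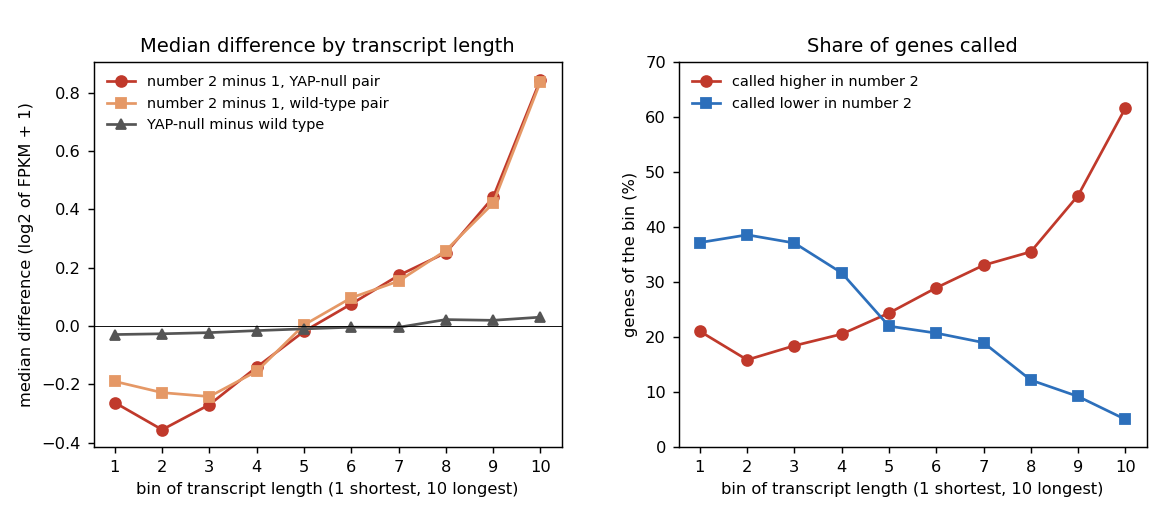
Left, the median difference (log2 of FPKM + 1) in each of the 10 bins of transcript length for number 2 minus number 1 in the YAP-null and wild-type pairs and for YAP-null minus wild type; right, the share of genes in each bin called higher or lower in number 2. Both pairs rise from bin 3 to 0.84 in the longest bin while the genotype line stays between -0.03 and 0.03, and the shares cross near bin 5.

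Coding length carried the trend more than the 3′ untranslated region. Over 5 bins of coding length the median went from -0.17 to 0.63, and over 5 bins of 3′ untranslated length from -0.04 to 0.31. Over 5 bins of GC content the medians lay between 0.03 and 0.14, but the pairs differed: the wild-type pair went from 0.17 in the lowest to -0.03 in the highest bin and the YAP-null pair from 0.03 to 0.08. The genotype difference went from 0.08 to -0.06 over these bins (Spearman rho -0.242 across genes). Level went the other way, with a median of 0.24 in the lowest of 5 bins of mean FPKM and -0.27 in the highest. By chromosome the medians lay between -0.04 (chromosome 8) and 0.22 (chromosome X).

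Among long transcripts the purine-rich ones differed most. Genes were placed in 4 length groups and 4 groups of purine share (A and G). In the longest group the median was 0.40, 0.34 and 0.48 in the 3 lower purine groups and 1.24 in the most purine-rich one. In that one 380 of 478 genes were called higher and 13 lower (79.5% and 2.72%). The 3 lower purine groups had 40.9% to 49.0% called higher and 7.40% to 12.0% lower, against 30.2% and 23.0% of all genes. In the shortest length group the median was -0.19 in the lowest and -0.23 in the highest purine group. Of all 4096 hexamers searched on the sense strand of the transcripts, 18 of the 20 with the highest mean rank correlation with the difference, taken within the 4 length groups, were made of purines only. The highest was AGAAGA (mean rho 0.143, from 0.0469 in the shortest to 0.272 in the longest group), and the lowest was TTTTTA (mean rho -0.123). These correlations are weak, overlapping hexamers share their matches, and they are given as a description.

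**Figure D5:**
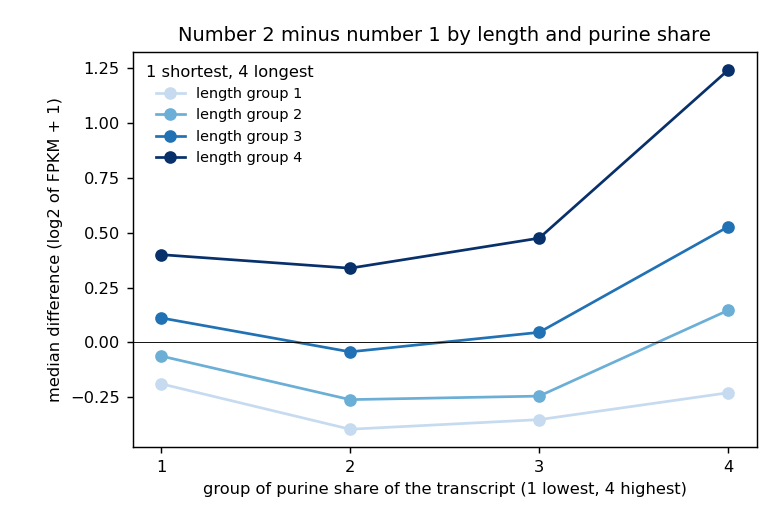
Median difference between number 2 and number 1 (log2 of FPKM + 1) by group of purine share (x axis, 1 lowest, 4 highest) for each of 4 groups of transcript length (lines). The line of the longest group lies highest throughout and climbs from 0.40 to 1.24, while that of the shortest group stays below 0.

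The purine runs can be seen in the coding sequences of 3 leading higher genes with long transcripts, set beside a leading lower gene. Each line shows the most purine-rich window of 60 coding bases, 5′ to 3′ on the sense strand, with purines in capitals (GENCODE mouse release 21 transcripts of GRCm38).
Bptf, coding bases 2791 to 2850: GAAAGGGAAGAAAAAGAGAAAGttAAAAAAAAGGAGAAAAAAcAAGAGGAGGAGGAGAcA
Akap12, coding bases 619 to 678: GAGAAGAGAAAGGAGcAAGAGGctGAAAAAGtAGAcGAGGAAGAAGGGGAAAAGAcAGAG
Golga4, coding bases 2903 to 2962: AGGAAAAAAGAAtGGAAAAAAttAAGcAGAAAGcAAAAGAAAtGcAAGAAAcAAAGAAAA
Lars2, coding bases 1878 to 1937: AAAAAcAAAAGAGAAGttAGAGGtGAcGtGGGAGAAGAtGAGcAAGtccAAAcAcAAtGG
The windows of Bptf, Akap12 and Golga4 hold 93.3%, 90% and 86.7% purines and that of Lars2 76.7%. The median of the best window was 71.7% over all matched genes, 75.0% over the called higher and 70.0% over the called lower genes. It was 76.7% over the 12 leading higher genes, as in the Lars2 window, and 71.7% over the 12 leading lower genes, and longer coding sequences offer more windows to choose from.

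Genes with the letters of a cytoplasmic polyadenylation element near their end lay lower. The letters TTTTAT or TTTTAAT were searched on the sense strand in the last 100 bases of each transcript and found in 1815 genes (18.0% of those matched). The median difference of genes with and without a match was -0.49 and -0.24 in the shortest length group, -0.27 and -0.06 in the second, -0.06 and 0.18 in the third and 0.44 and 0.58 in the longest. The genes with a match were lower in each of the 4 length groups. Counted over the whole transcript, TTTTAT was also among the lowest hexamers (mean rho -0.109), and 8 of the 20 lowest held only A and T. Whether a match near the end adds to this was not tested. A match is only a match of letters near an annotated end, and the ends used in oocytes were not measured here.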

How the data were processed

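TopHat alignment to mm9 of reads processed with CASAVA 1.8 is named in the submitters' processing notes; which tool quantified genes is not stated there. For every library the authors deposited FPKM values per gene with a lower and an upper bound, per the file headers. FPKM were summed per gene symbol, and those averaging 1 FPKM or more in the 4 GV libraries (10463 genes) were compared as log2(FPKM + 1), without further scaling, by limma 3.58.1 (limma-trend, R 4.3.3), number 2 minus number 1, two-sided, Benjamini-Hochberg adjusted over all genes. A log2(FPKM + 1) difference understates the change of low genes. Fragment counts are unknown, so no interval for counting error is given. The 3645 genes used for relative depth had at least 10 FPKM and values inside their bounds in all 4 libraries. For these genes the deposited bounds lay a median of 9.22% to 14.7% of the value from their midpoint, across the 4 libraries.

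The comparison by number, its members and the 31 gene lists were chosen with earlier results of these data known, so the calls are no independent support for the split. Named genes were Ldhb, Ldha, Ldhc, the Obox genes, Yap1 and Mir762, the 12 largest called differences per direction (mean of at least 10 FPKM, non-overlapping groups, at least 2-fold in both genotypes, leaving out predicted genes, pseudogenes and small RNAs) and up to 4 members per list with the largest difference; other names are marked as chosen after their values were seen. Lists are described by counts and medians, without a test. Transcripts were matched by symbol to GENCODE mouse release 21 (GRCm38), used for length and sequence only; coordinates are those of the deposited mm9 tables, counted from 1. Alternatives were other pseudocounts, filters and scalings, a genotype covariate, a replicate block for the genotype comparison and leaving out each library.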

Additional observations from a re-analysis of the deposited data

Results flagged for a closer look

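In 6 genes the YAP-null and the wild-type pair differed at least 2-fold in opposite directions between the numbers; whether the pairs differ was not tested, and most of these genes are near the lowest levels measured. The log2 differences, number 2 minus number 1, in the YAP-null and wild-type pair were 1.09 and -1.15 for 1110038B12Rik, -1.11 and 1.69 for Acbd7, 2.33 and -4.90 for BC002163, 1.01 and -1.51 for BC039966, 1.20 and -1.63 for the metallothionein gene Mt4, and -1.17 and 1.44 for the pseudogene Rpl31-ps12. BC002163 had the highest level among them, at 6.78 and 38.1 FPKM in YAP-null libraries 1 and 2 and 29.3 and 0.0161 FPKM in wild-type libraries 1 and 2.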

How the results depend on the processing

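The number of genes called between the numbers stayed within 1.5 times 5568 under all 13 alternatives, from 4356 (without YAP-null library 2) to 5647 (quantile normalization); it was 5389 with genotype as a covariate. The lower genes called were 1346 at a common sum of all libraries, 3098 after quantile normalization, and 2351 at a common sum without Mir762, an alternative chosen after seeing the data. Genes at least 2-fold higher in both genotypes were 768 and those lower 250 with a pseudocount of 5 FPKM. The lower ones were 668 after quantile normalization, 250 at a common sum and 420 at a common sum without Mir762. The cause was not tested. The r between the pairs was 0.789 to 0.894 over the alternatives. Between genotypes, the replicate block gave 2 called genes, Yap1 and Stk32a, against 0 without it, and leaving out each library gave 2 to 7; the labels do not say that a number pairs the samples. Of 29 list medians, 22 moved by more than the SD between the YAP-null and the wild-type pair at a common sum. The number was 3 at a common sum without Mir762, 11 after quantile normalization and 9 to 11 when any library was left out. List medians changed sign for deadenylation factors (-0.052 with a mean of at least 5 FPKM) and Zfp genes (-0.13, quantile). They also did so for solute carriers (-0.16, quantile, and -0.025, median-ratio scaling) and granulosa markers (-0.22, quantile). Yap1 between the numbers ranged from -2.59 (without YAP-null library 1) to 1.81 when each library was left out, and was 1.51 without YAP-null library 2 (adjusted p = 0.300) and 1.81 without wild-type library 1 (adjusted p = 0.200), since these leave the genotypes unbalanced.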

Other observations

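Other gene families held calls in both directions. Of 61 tested translation initiation and elongation factors 14 were called higher and 24 lower in number 2 (23.0% and 39.3%). Eif5b, which joins the ribosomal subunits, was the furthest up of the list, at 2.19 and 2.01 FPKM in the YAP-null and wild-type libraries numbered 1 and 47.4 and 47.2 FPKM in those numbered 2 (log2 difference 3.96 ± 0.155, SE), and the scaffold Eif4g3 was higher by 2.31 ± 0.147 (SE). Of 40 spliceosome and SR protein genes 12 were called higher and 13 lower (30.0% and 32.5%, against 30.2% and 23.0% of all genes), with Snrpn at 2.71 ± 0.223 (SE) and Snrnp40 at -1.51 ± 0.130 (SE). In the Oas1 cluster, relatives of an antiviral enzyme, 4 were called higher and 2 lower of 7 (57.1% and 28.6%). Oas1d stood at 391 and 466 FPKM in number 1 and 635 and 731 FPKM in number 2, and Oas1h at 501 and 506 against 281 and 337 FPKM. Of 15 tested replication-dependent histone genes 1 was called higher and 5 lower (6.67% and 33.3%).

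Some small RNA genes were high in 1 GV library only. Mir762 stood at 88240.1 FPKM in YAP-null library 1, Mir680-2 at 666 FPKM in YAP-null library 2 and Snord22 at 43.9 FPKM in wild-type library 1, and each was listed at 0 in the other 3 GV libraries. Eif3j2, a translation initiation factor gene, stood at 0.00410 FPKM in YAP-null library 1, 36.1 FPKM in YAP-null library 2, and 7.16 and 6.67 FPKM in wild-type libraries 1 and 2, so its mean difference of 2.56 came from the YAP-null pair (adjusted p = 0.0505).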
